A study of Mus musculus with 6 samples.

Results

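The 7 genes described here, *Nt5e*, *Cd80*, *Pdcd1lg2*, *Cd38*, *Hhex*, *Zbtb32* and *Cd55*, were taken by symbol from the 31053 features counted in mouse germinal center (GC) B-cells. All 7 are used to mark or are linked to memory B-cells, and they were chosen by earlier results of these same data, so their levels across cell states are a description and no test was made of them. The series held 6 single cell RNA-seq libraries, 3 from *Smc3* wt/wt mice and 3 from mice with 1 *Smc3* allele deleted (*Smc3* wt/-). *Smc3* encodes a core subunit of cohesin, the ring complex that extrudes chromatin loops. The study deleted *Smc3* with the *Cγ1*-Cre allele, a Cre recombinase driven from the *Ighg1* locus that acts in B-cells entering the GC reaction. Its single cell methods name the *Smc3* genotype of the mice but not whether both groups carried this allele. Splenic cells were sorted 8 days after immunization with sheep red blood cells. The methods name more *Smc3* wt/wt mice than there are *Smc3* wt/wt libraries here, and which mice went into each library was not stated, so the p-values measure only the spread between libraries, and the gate used for these libraries was not stated either. In flow cytometry the study took GC B-cells as B220+FAS+CD38-, and such a gate would bear on *Cd38* and on the number of naive or memory B-like cells; its part in the values below was not tested.

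Memory B-cells leave the GC reaction as resting cells that respond quickly when antigen returns. In mice they are told apart by surface CD80, PD-L2 (encoded by *Pdcd1lg2*) and CD73 (encoded by *Nt5e*), and cells with more of these proteins tend to have passed through the GC. CD38 is carried by naive and memory B-cells of mice and is lost on GC B-cells, for which reason it serves as a negative marker in the sorting of GC B-cells.

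The proteins fall into 4 roles. CD73 and CD38 are ectoenzymes: CD73 removes phosphate from extracellular AMP to give adenosine, and CD38 breaks down NAD. CD80 and PD-L2 are ligands for T cell receptors, CD28 and CTLA-4 for CD80 and PD-1 for PD-L2. HHEX is a homeobox transcription factor needed for memory B-cell formation, and ZBTB32 is a zinc finger repressor that restrains recall responses of memory B-cells. CD55, also called decay accelerating factor, protects cells from complement.

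On GRCm38 with GENCODE release M21, *Nt5e* (ENSMUSG00000032420) lies at chr9:88327197-88372092 and *Cd38* (ENSMUSG00000029084) at chr5:43868553-43912375, both on the plus strand. *Cd80* (ENSMUSG00000075122) lies at chr16:38455561-38496335 and *Pdcd1lg2* (ENSMUSG00000016498) at chr19:29410919-29471161, both on the plus strand. *Hhex* (ENSMUSG00000024986) lies at chr19:37434810-37440731 on the plus strand, and *Zbtb32* (ENSMUSG00000006310) at chr7:30589681-30598909 on the minus strand. *Cd55* (ENSMUSG00000026399) lies at chr1:130439027-130462744 on the minus strand, next to its copy *Cd55b*, with which it may share reads. *Cd55b* had no UMIs in the naive or memory B-like cells. All 7 are protein coding.

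The 250 bases before the RefSeq start sites are shown for *Zbtb32*, *Cd80* and *Pdcd1lg2* (GRCm38.p6), because the first and second of these genes shared a pattern within the naive or memory B-like cells that the third did not have. Each is written 5′ to 3′ on the strand of its gene, and capitals mark matches to the motifs searched. The windows are chr7:30598910-30599159 on the minus strand for *Zbtb32*, and chr16:38458683-38458932 and chr19:29410669-29410918 on the plus strand for *Cd80* and *Pdcd1lg2*. The *Cd80* window lies inside the annotated *Cd80* gene but in none of its exons. The *Zbtb32* and *Pdcd1lg2* windows lie outside the annotated span of their own gene. Overlap with other genes was not looked up.
Zbtb32: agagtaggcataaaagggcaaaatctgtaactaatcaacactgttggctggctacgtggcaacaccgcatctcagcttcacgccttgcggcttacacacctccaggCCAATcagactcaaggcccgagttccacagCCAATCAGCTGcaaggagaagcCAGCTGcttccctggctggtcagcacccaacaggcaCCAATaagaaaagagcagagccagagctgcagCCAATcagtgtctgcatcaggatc
Cd80: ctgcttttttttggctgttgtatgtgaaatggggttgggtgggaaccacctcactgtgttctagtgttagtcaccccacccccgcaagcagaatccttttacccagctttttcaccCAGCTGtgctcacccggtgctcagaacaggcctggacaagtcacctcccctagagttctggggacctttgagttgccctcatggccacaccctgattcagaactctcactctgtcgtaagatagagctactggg
Pdcd1lg2: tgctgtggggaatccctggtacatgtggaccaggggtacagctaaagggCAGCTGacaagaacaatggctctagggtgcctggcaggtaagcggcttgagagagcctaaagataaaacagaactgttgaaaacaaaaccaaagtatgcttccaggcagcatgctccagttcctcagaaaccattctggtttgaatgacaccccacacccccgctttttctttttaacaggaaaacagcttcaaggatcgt

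All 7 genes matched a RefSeq promoter, with 8 start sites in total. The 8 motifs were searched on both strands. CAGCTG, a symmetric E-box, was present 2 times before *Zbtb32* and 1 time each before *Cd80* and *Pdcd1lg2*, and 13.0% of 32851 promoter windows of the same length held it. CCAAT was present 4 times before the same *Zbtb32* start and 1 time before *Hhex*, against 33.9% of all windows, and 1 CCAAT match ends directly before 1 CAGCTG match. GGGCGG, the GC box, was found 4, 3 and 2 times before *Nt5e*, *Hhex* and *Cd55*, against 32.7% of all windows. These 3 windows were also rich in G and C, at 72.0%, 76.0% and 64.0% against a median of 52.4%. In the GENCODE annotation all 250 bases of the *Nt5e* and of the *Cd38* window lie in an exon of the same gene. For *Hhex* 31 bases do. The octamer ATGCAAAT (1.60% of windows), the AP-1 and BACH2 site TGAGTCA (4.46%), the IRF element (2.98%), the E protein site CAGGTG (17.2%) and the TATA box TATAAA (12.4%) matched none of the 8.

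After filtering and removal of 721 predicted doublets, 20847 of 22939 barcodes were kept. Total UMIs (unique molecular identifiers, each standing for 1 captured transcript) per library ranged from 5223325 to 35354257, and each pair of libraries shared 4 to 43 barcodes. Clusters were named by marker genes and carry "-like" in their names: GC-like cells (12205, made up of dark zone centroblast or CB-like cells, of S-phase and recycling cells and of 1478 light zone centrocyte or CC-like cells), naive or memory B-like cells (1812), plasmablast or PB-like cells (539), plasma cell or PC-like cells (1529) and T cell-like cells (534). A B-lineage cluster of 3426 cells led by haemoglobin genes was left without a name. The deleted exon of *Smc3* lies upstream and is not itself read by 3′ counts. Whether its deletion lowered the rest of the transcript was not tested, so *Smc3* was not used to check the labels. The study reported reduced *Smc3* expression by RNA-seq in its *Smc3* wt/- lymphomas. CPM stands for UMIs of a gene scaled to a fixed total of UMIs in the state. In GC-like cells the *Smc3* level was 161 to 172 CPM for *Smc3* wt/wt, against 159, 122.6 and 180 CPM for *Smc3* wt/-. In CC-like cells it was 111 to 122 CPM in *Smc3* wt/wt, against 106, 67.7 and 106 CPM in *Smc3* wt/-, lower without overlap, as were 4.27% of genes there (edgeR adjusted p = 1).

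*Smc3* wt/- replicate 2 stood apart from the other 5 libraries. Of its UMIs, 51.9% came from immunoglobulin genes (2.37% to 3.899% elsewhere), and 48.6% of its kept cells were plasma-lineage. Its cells in the GC-like clusters went against that name. The 9 GC B-cell markers summed to 582 CPM there, against 2065 to 2779 CPM in the other libraries, and to 418 CPM against 2144 to 3057 CPM in its CC-like cells, while *Ighd*, the IgD heavy chain of naive B-cells, was at 57.1 CPM in its GC-like cells against 8.19 to 13.1 CPM. The main differences that rest on this library are given with and without it, and some means and interactions only with it. Transcripts of the Y chromosome placed *Smc3* wt/wt replicates 1 and 2 and *Smc3* wt/- replicate 2 as male and the other 3 libraries as female.

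*Cd38* was highest in the naive or memory B-like cells. Levels there were 207, 273 and 259 CPM in *Smc3* wt/wt replicates 1 to 3 and 218, 262 and 225 CPM in *Smc3* wt/- replicates 1 to 3, with CPM counted over all UMIs of the cells of that state. In the GC-like cells they were 14.6, 15.7 and 14.6 CPM in *Smc3* wt/wt, against 12.9, 77.6 and 12.8 CPM in *Smc3* wt/-. Every library was higher in the naive or memory B-like cells, and *Smc3* wt/- replicate 2 alone was above 16 CPM in the GC-like cells. The mean log2 difference, with 5 CPM added, was 3.33 ± 0.81 (SD, n = 6), and 3.65 without that library. The unnamed B-lineage cluster came next at 58.3 ± 38.0 CPM, and PB-like and PC-like cells were lowest at 5.74 ± 2.80 (n = 6) and 4.71 ± 2.19 (n = 4).

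*Hhex* likewise had its highest mean in the naive or memory B-like cells. It measured 84.8, 150, 139, 117, 131 and 126 CPM in the naive or memory B-like cells of the 6 libraries, *Smc3* wt/wt first. In the GC-like cells, 5 libraries were between 2.31 and 3.97 CPM and *Smc3* wt/- replicate 2 was at 47.5 CPM. The mean log2 difference was 3.56 ± 1.11 (SD, n = 6), or 3.99 without this library. Within the GC, *Hhex* was higher in CC-like than in CB-like cells in 6 of 6 libraries, by 1.13 ± 0.59 on the log2 scale.

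*Cd55* was also concentrated in the naive or memory B-like cells, at 126, 149 and 124 CPM in *Smc3* wt/wt, against 89.8, 80.9 and 139 CPM in *Smc3* wt/-. Its GC-like level was 3.85 to 6.34 CPM in 5 libraries and 18.4 CPM in *Smc3* wt/- replicate 2. The log2 difference was 3.45 ± 0.81 (SD, n = 6), and 3.77 without that library. Unlike the other genes, *Cd55* had its second highest mean in PC-like cells, at 33.0 ± 27.0 CPM over 4 libraries with at least 20 such cells. Of these, *Smc3* wt/- replicate 3 was at 73.2 CPM from 16 UMIs and the other 3 between 14.8 and 22.1 CPM, and the gap to the unnamed B-lineage cluster at 22.6 ± 13.8 CPM was within the spread.

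*Zbtb32* had a level of 31.4, 44.3 and 37.3 CPM in the *Smc3* wt/wt and 70.5, 63.3 and 35.4 CPM in the *Smc3* wt/- naive or memory B-like cells. The GC-like cells held 12.1, 7.09 and 5.97 CPM and 10.6, 21.3 and 6.10 CPM. All 6 libraries were higher in the naive or memory B-like cells, by 1.77 ± 0.44 on the log2 scale. With clusters made at a resolution of 1, the difference was 1.07, since 148 of the 1812 cells then formed a small cluster without a name in which *Bhlhe41* and *Zbtb32* led. These cells, picked out by their expression and so only described, held 141 of the 286 *Zbtb32* UMIs of the naive or memory B-like cells, at 77.4 to 261 CPM across the 6 libraries, and the other 1664 cells were at 16.9 to 42.3 CPM. No *Ighd* UMI was found in 140 of the 148, and *Smc3* wt/- replicate 2 gave 76 of them. A second peak was seen in the recycling-like cells, a cluster led by *Hspd1*, at 19.7 ± 6.47 CPM, which exceeded the next state by more than the spread, whereas CC-like cells had 3.63 ± 4.02 CPM.

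The T cell ligand genes were sparse in every B-cell state. *Cd80* was at 9.42, 6.21, 5.05, 8.02, 16.4 and 7.77 CPM in the naive or memory B-like cells of the 6 libraries, from 3 to 27 UMIs per library. *Pdcd1lg2* was at 6.28, 10.6, 9.08, 9.62, 6.08 and 9.50 CPM, from 2 to 12 UMIs. Both were higher there than in the GC-like cells in 6 of 6 libraries, by 0.84 ± 0.32 for *Cd80* and 0.86 ± 0.28 for *Pdcd1lg2* on the log2 scale with 5 CPM added. *Pdcd1lg2* was higher in CC-like than in CB-like cells in 6 of 6 libraries (0.48 ± 0.23), and below 0.5 CPM on average in PB-like and PC-like cells.

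*Nt5e* was the exception. In the naive or memory B-like cells it was at 6.28, 10.6 and 3.03 CPM in *Smc3* wt/wt, against 1.60, 4.26 and 5.18 CPM in *Smc3* wt/-, from 1 to 12 UMIs. The GC-like cells held 21.7, 22.6 and 13.7 CPM in *Smc3* wt/wt, against 10.99, 2.92 and 8.23 CPM in *Smc3* wt/-. It was thus lower in the naive or memory B-like cells in 5 of 6 libraries, the exception being *Smc3* wt/- replicate 2, with a mean log2 difference of -0.79 ± 0.61, or -0.99 without that library.

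Across states, *Nt5e* was highest in S-phase GC B-like cells (18.6 ± 17.1 CPM), the unnamed B-lineage cluster (18.02 ± 13.2) and CB-like cells (16.5 ± 9.11), which did not differ beyond their spread. Recycling-like (6.76 ± 2.67), naive or memory B-like (5.17 ± 3.14) and CC-like cells (6.80 ± 5.52) formed a lower group, again within the spread of each other. PB-like cells had 0.692 ± 0.891 CPM, and PC-like cells had 1 UMI in all. *Nt5e* was lower in CC-like than in CB-like cells in 6 of 6 libraries, with a mean log2 difference of -0.86 ± 0.26. In *Smc3* wt/- replicate 2 this direction rests on few UMIs, with 0 CPM in its CC-like cells. Without that library the mean was -0.92. Outside the B-lineage, T cell-like cells held 31.5, 99.6 and 58.8 CPM in *Smc3* wt/wt, against 34.7, 54.5 and 10.9 CPM in *Smc3* wt/-.

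**Figure D1:**
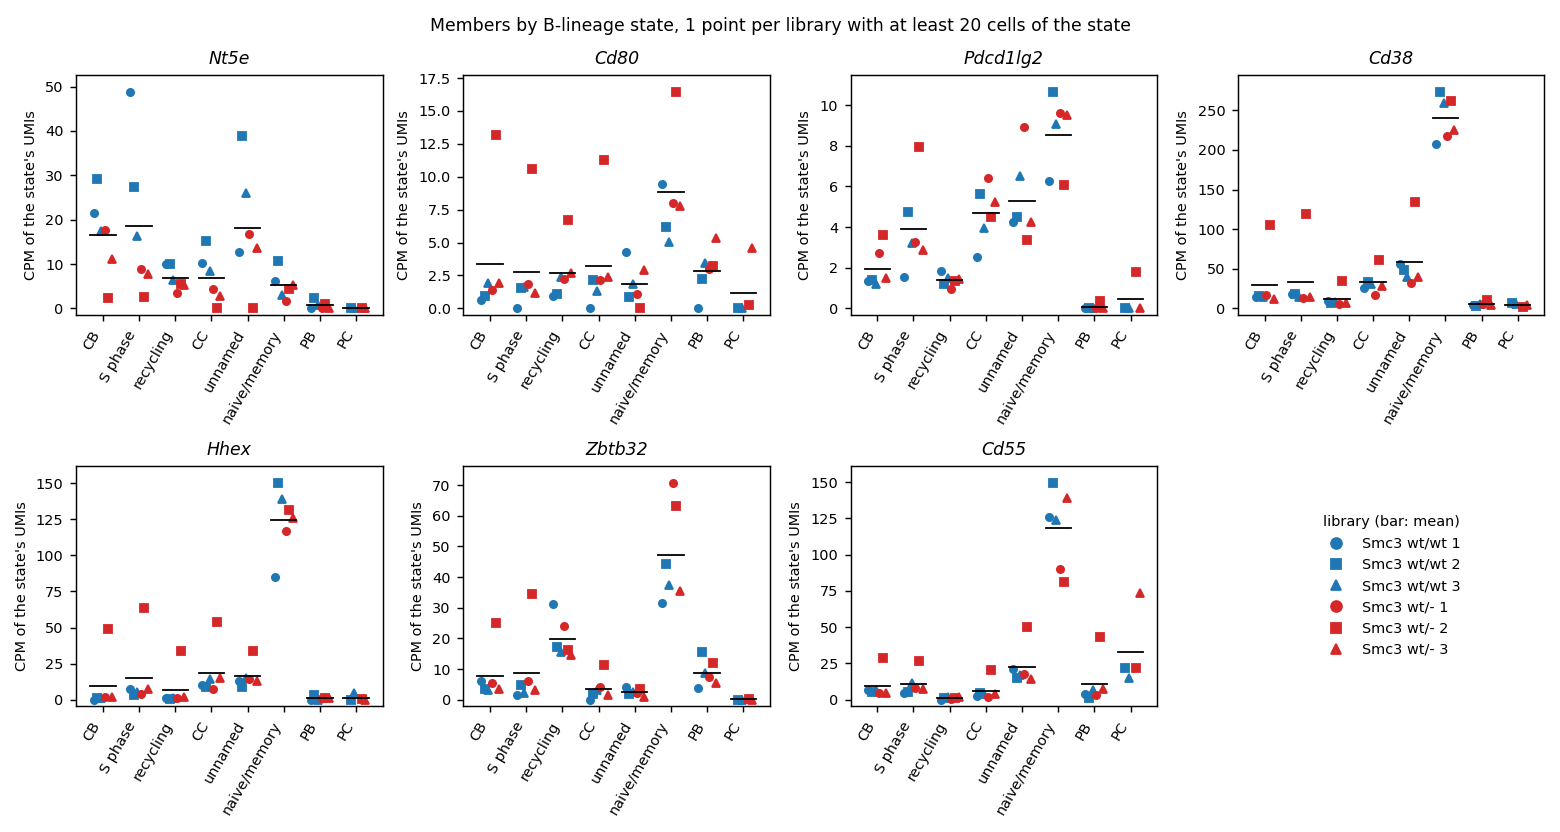
Level of each of the 7 genes (CPM, linear axis from 0) by B-cell state, with 1 point per library of at least 20 cells and a bar at the mean. *Cd38*, *Hhex*, *Cd55*, *Zbtb32*, *Cd80* and *Pdcd1lg2* have their highest mean in naive or memory B-like cells, and *Nt5e* has its highest in S-phase GC B-like cells.

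Over all 8814 genes with at least 5 CPM, 20% were higher and 32.2% lower in the naive or memory B-like than in the GC-like cells in all 6 libraries, against 6 and 0 of the 7 genes. Since the genes were chosen with this pattern known, nothing is read from that count. A list of 20 further genes linked to memory or resting B-cells had 14 higher and 2 lower in all 6 libraries, among them *Klf2*, a regulator of lymphocyte trafficking (4.95 ± 1.44), *Bcl2*, which blocks apoptosis (3.76 ± 1.09), and *Ccr6*, a chemokine receptor (3.82 ± 1.22). The 2 lower genes were *Bach2*, a transcription factor that favours memory B-cells (-1.03 ± 0.54), and *Anxa2*, a membrane binding protein (-1.82 ± 0.88). Of 16 genes that work with the 7, 3 were higher and 3 lower. The higher ones were *Adora2a*, an adenosine receptor (1.65), *Entpd1*, or CD39, which makes the AMP that CD73 uses (1.15 ± 0.36), and *Cd274*, or PD-L1 (1.04). The lower ones were *Ada*, which deaminates adenosine (-3.05 ± 0.48), *Adk*, which phosphorylates it (-1.21), and *Slc29a1*, which carries it across membranes (-1.19). For CC-like against CB-like cells, 18.3% of 8547 genes were higher and 20.5% lower in all 6 libraries, against 2 and 3 of the 7 genes.

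The naive or memory B-like cells were next split by *Ighd*, into 845 cells with at least 1 *Ighd* UMI and 967 without. In sparse counts a cell without an *Ighd* UMI may still express it. *Zbtb32* was at 39.9, 74.7, 65.6, 104, 79.2 and 58.6 CPM in the cells without *Ighd* and at 25.9, 11.1, 16.0, 13.1, 16.7 and 12.1 CPM in those with it, so that the cells with and without *Ighd* did not overlap. *Cd80* had 3, 7, 5, 5, 25 and 9 UMIs in the cells without *Ighd* and 0, 0, 0, 0, 2 and 0 in the cells with it. Both were higher without *Ighd* in 6 of 6 libraries, by 1.84 ± 0.71 for *Zbtb32* and 1.88 ± 0.38 for *Cd80* on the log2 scale, or 1.82 and 1.98 without *Smc3* wt/- replicate 2.

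The other genes did not share this split. *Cd38* measured 214 ± 42.2 CPM without *Ighd* and 277 ± 35.2 CPM with it, and was lower without *Ighd* in 6 of 6 libraries (-0.38 ± 0.26). *Cd55* was also lower in 6 of 6, at 94.0 ± 29.6 against 146 ± 23.8 CPM (-0.65 ± 0.41). *Hhex* differed by -0.07 ± 0.40, less than the spread between libraries. *Pdcd1lg2* differed by -0.30 ± 0.59 and was higher without *Ighd* in 2 of 6 libraries, and its direction turned to 0.41 where at least 2 *Ighd* UMIs were required. *Nt5e* was higher without *Ighd* in 5 of 6 libraries, by 0.62 ± 0.50, on 22 UMIs against 9. The 20 markers of the plasma lineage also summed higher without *Ighd* in each library, at 2633, 2643 and 2769 CPM against 1904, 1715 and 1547 CPM in *Smc3* wt/wt and at 4179, 4317 and 2614 CPM against 1635, 3232 and 1415 CPM in *Smc3* wt/-. Their part in the split was not tested.

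Of 8741 genes, 3.42% were higher and 3.57% lower in the cells without *Ighd* in all 6 libraries, against 2 and 2 of the 7 genes. Of the 20 memory-linked genes, 3 were higher in all 6 libraries: *S100a6*, a calcium binding protein (2.24 ± 0.75), *Anxa2* (1.77 ± 0.74) and *Vim*, an intermediate filament protein (1.06 ± 0.50). None was lower in all 6. *Cd59a*, an inhibitor of complement lysis, was the single partner gene that was higher in all 6 (1.44 ± 1.21).

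**Figure D2:**
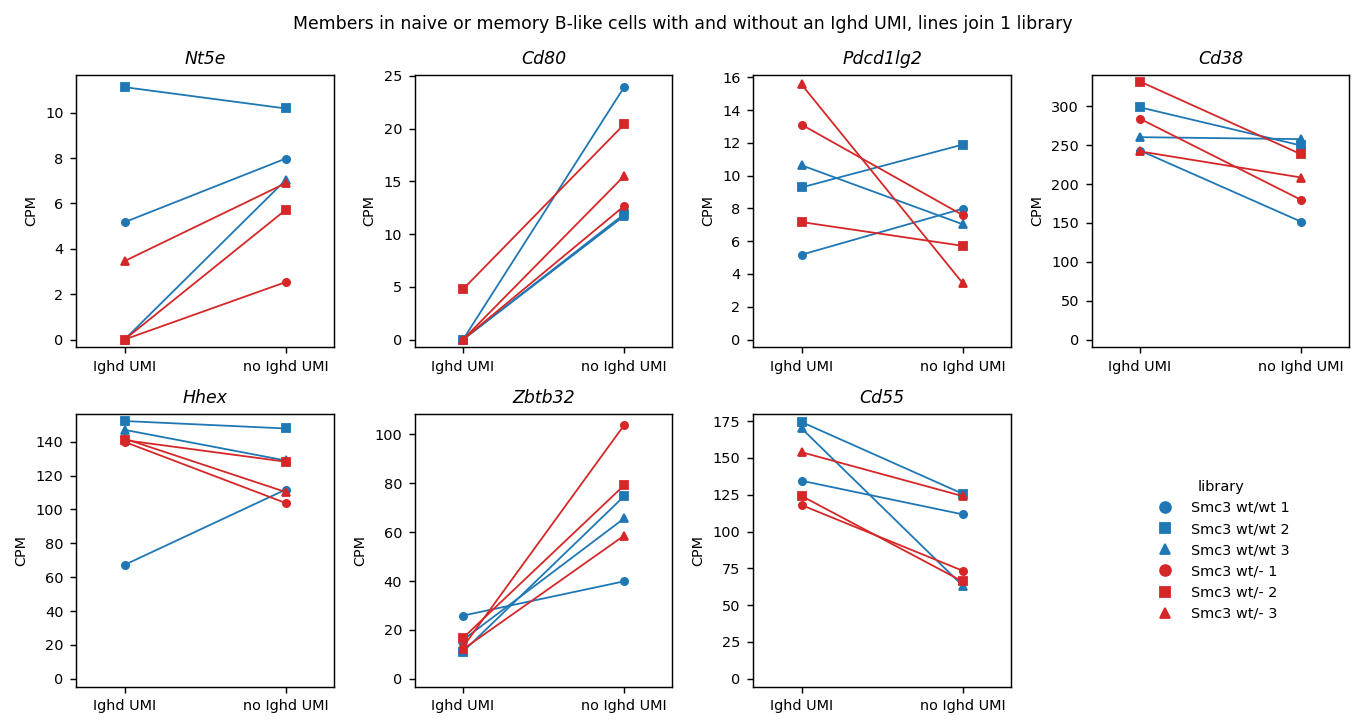
Level of each gene (CPM, linear axis from 0) in naive or memory B-like cells with and without an *Ighd* UMI, with lines joining the values of 1 library. *Cd80* and *Zbtb32* lie higher without *Ighd* in all 6 libraries, and *Cd38* and *Cd55* lie lower.

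The share of cells with a UMI of each gene was also taken. Median depth was 2458.5 UMIs in naive or memory B-like, 6191 in GC-like and 15893 in PC-like cells, so each cell was thinned to 2000 UMIs, which left out 683 of 1812 naive or memory B-like and 231 of 12205 GC-like cells. The mean share of naive or memory B-like cells with a *Cd38* UMI was 39.5%, against 5.08% of GC-like and 0.257% of PC-like cells. *Hhex* was detected in 20.3%, 2.20% and 0.0934%, and *Cd55* in 17.1%, 1.79% and 4.85%. *Zbtb32* was found in 7.20% and 1.38% of the first pair of states, *Cd80* in 1.90% and 0.444% and *Pdcd1lg2* in 1.40% and 0.575%. *Nt5e* ran the other way, at 1.16% of naive or memory B-like and 2.97% of GC-like cells, and 9.89% of T cell-like cells. Without *Smc3* wt/- replicate 2, which held 1432 of the 1529 PC-like cells, the GC-like shares were 3.34% for *Cd38*, 0.854% for *Hhex*, 1.28% for *Cd55*, 0.968% for *Zbtb32*, 0.246% for *Cd80*, 0.575% for *Pdcd1lg2* and 3.45% for *Nt5e*. The PC-like shares without it, over 2 libraries, were 0% for *Cd38* and *Hhex* and 5% for *Cd55*. Before thinning the naive or memory B-like shares were 46.3% for *Cd38*, 29.7% for *Hhex* and 27.1% for *Cd55*.

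*Nt5e*, *Cd80* and *Pdcd1lg2* were each detected in few cells. Of 1129 thinned naive or memory B-like cells, 13 had *Nt5e*, 24 had *Cd80* and 17 had *Pdcd1lg2*. A single cell held a pair, *Cd80* and *Pdcd1lg2*, and 0 held all 3. Without thinning, 29, 54 and 48 of 1812 cells had each gene, 6 cells held a pair and 0 held all 3. At these detection rates few pairs can be seen whether or not the genes go together, and a cell that lacked a UMI cannot be called negative.

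Genes with the most similar pattern were found by the correlation of log2(CPM + 5) over 52 library and state sums, among 8231 genes, with the 7 genes, the 20 memory-linked and the 16 partner genes left out of the ranking. The sums share libraries and depth, so the values are a description. *Nt5e* was nearest to *Efnb1*, an ephrin ligand (r = 0.82), followed by *Mprip* (0.81), *Lpin2* (0.81), *Gm40634* (0.80) and *Prps2* (0.80). *Cd38* was nearest to *Gimap3* (0.97) and *Hhex* also to *Gimap3* (0.96). *Zbtb32* was nearest to *Pdlim1* (0.84) and *Ass1* (0.83), *Cd80* to *Asb2* (0.71), *Pdcd1lg2* to *Arhgef3* (0.87) and *Cd55* to *Gm2a* (0.91). Among the 7 genes, *Cd38* and *Hhex* correlated at 0.96 and *Cd80* and *Zbtb32* at 0.69, whereas *Nt5e* and *Cd38* were at -0.02. Over the 43 sums without *Smc3* wt/- replicate 2, the first of the 5 genes ranked changed for *Hhex*, where *Pirb* (0.97) came before *Gimap3* (0.96), for *Cd80*, where *Slc6a13* (0.66) came before *Asb2* (0.64), and for *Pdcd1lg2*, where *Clec2i* (0.90) came before *Arhgef3* (0.89).

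The comparison of the genotypes asked whether loss of 1 *Smc3* allele was accompanied by other levels of these genes within a state. Summed counts were compared between 3 and 3 libraries with the edgeR quasi-likelihood test and Benjamini-Hochberg adjustment over all genes. In sums over cells, fewer cells with a transcript and less of it per cell cannot be told apart. No gene passed an adjusted p of 0.05: 0% of 11558 genes in all B-lineage cells, 0% of 10874 in GC-like, 0% of 7750 in CC-like, 0% of 7063 in naive or memory B-like, 0% of 5971 in plasma-lineage cells and 0% of 8070 in the unnamed cluster. At an unadjusted p under 0.05 there were 193, 187, 132, 128, 228 and 183 genes, and DESeq2 called 2 genes in all B-lineage cells and 0 in the others.

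*Nt5e* was lower in the GC-like cells of each *Smc3* wt/- library than in those of any *Smc3* wt/wt library. The *Smc3* wt/wt libraries ranged from 13.7 to 22.6 CPM and the *Smc3* wt/- libraries from 2.92 to 10.99 CPM. The log2 difference was -1.24 ± 0.33 (SE, 95% interval -2.00 to -0.47), with an edgeR adjusted p of 0.9999, unadjusted 0.00622. Without *Smc3* wt/- replicate 2 it was -1.04 ± 0.23 (edgeR adjusted p = 0.9998). *Nt5e* was thus not a called difference, and non-overlap with *Smc3* wt/- lower was met by 4.49% of all genes tested. Among the female libraries the values were 13.7 CPM in *Smc3* wt/wt, against 10.99 and 8.23 CPM in *Smc3* wt/-, and among the male ones 21.7 and 22.6 CPM against 2.92 CPM.

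The same direction was found in other GC states. In CC-like cells *Nt5e* was at 10.1, 15.2 and 8.34 CPM in *Smc3* wt/wt, against 4.27, 0 and 2.87 CPM in *Smc3* wt/-. These values did not overlap, as for 4.27% of genes, and differed by -1.99 ± 0.51 on the log2 scale (SE, edgeR adjusted p = 1, unadjusted 0.00294). They rest on 4, 35 and 19 UMIs in *Smc3* wt/wt and on 4, 0 and 6 UMIs in *Smc3* wt/-. Without *Smc3* wt/- replicate 2, whose CC-like cells were low in GC B-cell markers, the difference was -1.83 ± 0.48 (edgeR adjusted p = 0.9998). In S-phase GC B-like cells the values were 48.7, 27.3 and 16.4 CPM against 8.85, 2.64 and 7.80 CPM. In CB-like cells the libraries overlapped, with 17.3 CPM as the lowest *Smc3* wt/wt value and 17.7 CPM as the highest *Smc3* wt/- value. The unnamed cluster had 12.8, 38.8 and 26.1 CPM against 16.7, 0 and 13.7 CPM, which overlapped (-1.20 ± 0.36, edgeR adjusted p = 0.9999, unadjusted 0.00535). In that cluster *Smc3* wt/- replicate 2 had 93080 CPM of erythroid markers (89.6 to 3450 CPM in the other libraries), 18500 CPM of plasma-lineage markers (4607 to 5014) and 848 CPM of GC B-cell markers (2433 to 3254), and their part in the difference was not tested. Without this library *Nt5e* differed by -1.12 ± 0.30 (edgeR adjusted p = 0.9999). Over all B-lineage cells the difference was -1.44 (edgeR adjusted p = 0.928, unadjusted 0.0364), and 4.44% of genes were lower without overlap. In this class *Smc3* wt/- replicate 2 had 94140 CPM of plasma-lineage markers (6127 to 10600 CPM in the other libraries) and 98.5 CPM of GC B-cell markers (1965 to 2582), and their part in the difference was not tested. Without it *Nt5e* differed by -1.04 ± 0.23 (edgeR adjusted p = 1).

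T cell-like cells hold *Nt5e*, so T cell markers were summed in the same classes. The 16 markers came to 107 to 116 CPM in *Smc3* wt/wt, against 98.2 to 135 CPM in *Smc3* wt/- GC-like cells, 266 to 307 and 142 to 351 CPM in CC-like cells, and 140 to 154 and 149 to 201 CPM in the unnamed cluster. The ranges of the 2 genotypes overlapped in each of these classes, and *Cd3e* was at most 3.75 CPM in GC-like cells. The part of these transcripts in the *Nt5e* difference was not tested.

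**Figure D3:**
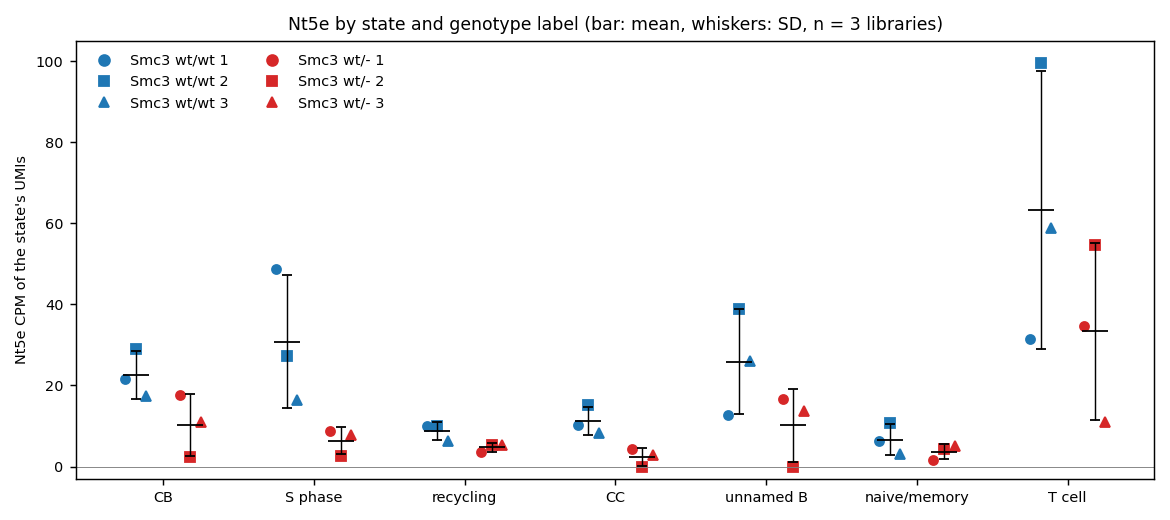
*Nt5e* level (CPM) by state in the 3 *Smc3* wt/wt and 3 *Smc3* wt/- libraries, with 1 point per library, a bar at the mean and whiskers of 1 SD. In CC-like cells the *Smc3* wt/wt libraries lie between 8.34 and 15.2 CPM and the *Smc3* wt/- libraries between 0 and 4.27 CPM, and the highest points are those of T cell-like cells.

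In the naive or memory B-like cells, 5 of the 7 genes passed the filter on low counts and none was called. *Zbtb32* had the largest difference, 0.53 ± 0.30 (SE, edgeR adjusted p = 1, unadjusted 0.106), with a 95% interval of -0.14 to 1.20, and 0.27 ± 0.30 without *Smc3* wt/- replicate 2, which held 400 of the 967 cells without *Ighd*. Plasma-lineage markers in this class came to 2073 to 2199 CPM in *Smc3* wt/wt, against 3246, 4041 and 2015 CPM in *Smc3* wt/-, and their part was not tested. *Cd55* differed by -0.35 ± 0.24 (-0.88 to 0.18), *Pdcd1lg2* by -0.18 ± 0.40 (-1.07 to 0.70), *Cd38* by -0.05 ± 0.22 (-0.54 to 0.44) and *Hhex* by -0.02 ± 0.25 (-0.59 to 0.54). Over all settings run, the *Cd55* difference in this class ranged from -0.63 to -0.21. *Nt5e* and *Cd80* did not pass the filter. *Cd80* was at 9.42, 6.21 and 5.05 CPM in *Smc3* wt/wt, against 8.02, 16.4 and 7.77 CPM in *Smc3* wt/-, which overlapped.

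The GC-like differences of the other genes depended on *Smc3* wt/- replicate 2. *Hhex* was at 2.75, 2.31 and 3.06 CPM in *Smc3* wt/wt, against 2.64, 47.5 and 3.97 CPM in *Smc3* wt/-, a log2 difference of 2.59 ± 1.15 (edgeR adjusted p = 0.9999, unadjusted 0.0565) that became 0.30 ± 0.28 without that library. *Cd38* and *Cd55* went from 1.14 and 0.72 to -0.26 and -0.26, *Cd80* from 1.52 to 0.35, *Zbtb32* from 0.57 to 0.06 and *Pdcd1lg2* from 0.35 to 0.10. None of these had an adjusted p below 0.9998. In plasma-lineage cells *Cd55* was the 1 gene of the 7 that was tested, with a difference of 2.21 ± 0.91 (edgeR adjusted p = 0.841, unadjusted 0.0387) that was 0.58 without replicate 2, and the libraries overlapped. That library held 1432 PC-like and 305 PB-like cells, whereas each of the others had more PB-like (20 to 62) than PC-like cells (12 to 26). *Cd55* had a mean of 33.0 ± 27.0 CPM in PC-like and 10.9 ± 15.9 CPM in PB-like cells, a gap within the spread. Without thinning, the mean share of PB-like cells with a *Cd55* UMI was 10.2%, or 6.36% without replicate 2. In PC-like cells it was 31.7%, or 33.7% without replicate 2. The part of this mix was not tested.

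**Figure D4:**
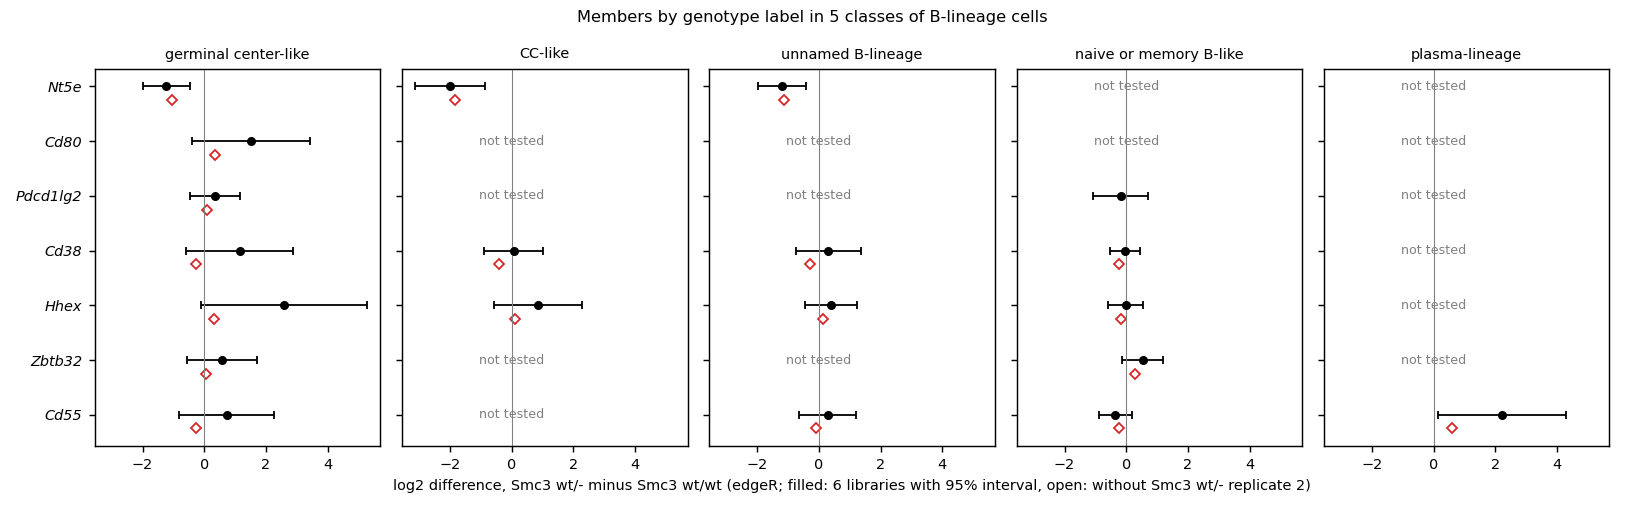
Log2 difference of *Smc3* wt/- minus *Smc3* wt/wt for each of the 7 genes and each class tested, with 95% intervals from edgeR (filled) and the value without *Smc3* wt/- replicate 2 (open). *Nt5e* lies below 0 in each class in which it was tested, and the others have intervals that include 0 except *Cd55* in plasma-lineage cells.

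The genotype difference in naive or memory B-like cells was tested against that in GC-like cells. Of 9048 genes, 1 (0.0111%) was called, *Hbb-bs*, a haemoglobin chain, which is not one of the 7. *Nt5e* had an interaction of 0.77 ± 0.66 (SE, edgeR adjusted p = 0.9999, unadjusted 0.270) and *Hhex* one of -1.84 ± 0.93 (adjusted p = 0.9999, unadjusted 0.0761). Both values include *Smc3* wt/- replicate 2. The *Hhex* difference was -0.02 in naive or memory B-like cells and 2.59 in GC-like cells, the latter 0.30 without that library. *Nt5e* did not pass the low-count filter in the naive or memory B-like cells alone, with 31 UMIs there against 1364 in GC-like cells. The fit could therefore not decide whether its genotype difference differs between these classes.

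The 20 memory-linked genes and the 16 partner genes gave 0 called genes in every class. In GC-like cells, 18 of the 20 were tested with a median log2 difference of 1.06, against -0.0044 for all genes, and *Ccr6* and *Il9r* had an unadjusted p under 0.05. Without *Smc3* wt/- replicate 2 it was 0.0565 over 20 tested. In naive or memory B-like cells, 19 were tested with a median of 0.08, or -0.19 without that library, and *Cxcr3* and *Il9r* had an unadjusted p under 0.05. The partner genes had a median of -0.07 over 11 tested in GC-like and -0.08 over 7 tested in naive or memory B-like cells, or -0.0178 over 12 and 0.12 over 8 without that library.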

How the data were processed

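The deposited files held whole-number UMI counts per gene and cell barcode, not normalized, which the authors made from 10x Genomics 3′ libraries with Cell Ranger; the submitters' processing notes also name mm10, R 4.0.2 and Seurat 4.0.0. Cells with at least 500 genes and at most 10% mitochondrial UMIs were kept, and doublets were removed with Scrublet (scanpy 1.11.5) at a rate of 0.8% per 1000 cells. Cells were integrated over libraries and clustered with Seurat 5.3.0 (R 4.3.3) at resolution 0.5. A cluster took a name from fixed markers among its top 10 genes, so names rebuilt here may themselves give differences from the study. Counts were summed per library and class with at least 20 cells. CPM is the UMIs of a gene per 1e6 UMIs of that sum, and 5 CPM was added before log2. Genotypes were compared with edgeR 4.0.16 (quasi-likelihood, TMM, filterByExpr), and DESeq2 1.42.0 was an alternative. The members and lists were chosen with earlier results of these data known, and named genes are the 7 members, 2 lists and the 5 genes most like each member. Promoters came from RefSeq (GRCm38.p6).

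The test was checked on simulated data: for GC-like cells it recovered 54 of 200 genes changed by 1 on the log2 scale and 179 of 200 changed by 2, for CC-like cells 80 and 198, for naive or memory B-like cells 26 and 197, for all B-lineage cells 0 and 117 and for plasma-lineage cells 0 and 167. False calls in the same simulations were 6 and 14 for GC-like, 15 and 18 for CC-like and 3 and 14 for naive or memory B-like cells. They were 1 and 3 for all B-lineage and 0 and 9 for plasma-lineage cells. Replicate numbers are shared by the labels of both genotypes. Deviations of same-numbered libraries correlated above 0.1 in each pair for the GC-like class (0.413, 0.179 and 0.262) and for the naive or memory B-like class (0.364, 0.265 and 0.113), but not in every pair of the remaining classes. Alternatives added after the data were seen were the fit in the unnamed cluster, its inclusion in the GC-like class, and the leaving out of libraries in the interaction and the means.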

Additional observations from a re-analysis of the deposited data

Results flagged for a closer look

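*Hbb-bs*, which encodes a beta chain of haemoglobin and is not one of the 7 genes, was the single gene whose genotype difference in naive or memory B-like cells was found to differ from that in GC-like cells by the edgeR interaction test. The difference between the classes was -1.99 ± 0.22 (SE) on the log2 scale, with an edgeR adjusted p of 0.0355 over 9048 genes. In GC-like cells it was at 21.5, 201 and 26.7 CPM in *Smc3* wt/wt, against 0.527, 566 and 195 CPM in *Smc3* wt/-, and in naive or memory B-like cells at 15.7, 169 and 26.2 CPM, against 0, 143 and 37.1 CPM, so that the genotypes overlapped in both classes. Of the 6 fits that each left out 1 library, *Hbb-bs* was called in 1, the fit without *Smc3* wt/- replicate 2. Haemoglobin genes also led the unnamed B-lineage cluster. Their part in this result was not tested.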

How the results depend on the processing

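The *Nt5e* difference between genotypes was below 0 under each alternative run in GC-like (17 of 17, -1.48 to -1.04), CC-like (13 of 13, -2.25 to -1.76), unnamed (16 of 16) and all B-lineage cells (16 of 16), and its lowest adjusted p was 0.939, 0.356, 0.0628 and 0.533. With the replicate block it was -1.23 in GC-like cells (edgeR adjusted p = 0.9998), and the block gave 0 called genes in each class. In CC-like cells *Nt5e* could not be tested without *Smc3* wt/wt replicate 2 or 3 or *Smc3* wt/- replicate 3, since it then missed the filter. DESeq2 called 2 genes in all B-lineage cells. Without a low-count filter 6 genes were called in CC-like, 33 in naive or memory B-like, 6 in plasma-lineage cells and 21 in the unnamed cluster. Leaving out 1 library gave 0 to 1 calls in plasma-lineage cells and 0 to 8 in the interaction, 8 of them without *Smc3* wt/- replicate 2.

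Directions turned for the following differences between genotypes. In naive or memory B-like cells these were *Cd38* with a looser cell filter (0.0268) and at resolution 1 (0.0301), *Zbtb32* at resolution 1 (-0.00097), *Pdcd1lg2* with the looser filter (0.0814) and doublets kept (0.0063), and *Hhex* with the replicate block (0.0102). *Cd38* in CC-like cells was -0.0109 with doublets kept. Without integration, *Cd55*, *Cd38* and *Hhex* were -0.195, -0.0862 and -0.105 in the unnamed cluster. Leaving out 1 library gave *Cd55* -0.20 to 2.07 and *Cd38* -0.23 to 0.94 in all B-lineage cells, *Cd55* -0.26 to 1.16 and *Cd38* -0.26 to 1.62 in GC-like cells, *Cd38* -0.42 to 0.44 in CC-like cells, *Cd38* -0.23 to 0.0737 and *Hhex* -0.24 to 0.16 in naive or memory B-like cells, and *Cd55* -0.10 to 0.80 and *Cd38* -0.29 to 0.89 in the unnamed cluster. The GC-like differences of *Cd38* (1.14) and *Cd55* (0.72) and the interactions of *Cd55* (-0.82) and *Cd38* (-0.75) turned without *Smc3* wt/- replicate 2. For the interaction it gave *Cd55* -1.54 to 0.0300, *Cd38* -1.23 to 0.0095 and *Zbtb32* -0.43 to 0.19.

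State differences shrink by construction with a larger pseudocount. With 1 and 20 CPM the naive or memory B-like minus GC-like difference was 1.56 and 0.33 for *Cd80* and 1.48 and 0.35 for *Pdcd1lg2*. With 20 CPM it was 2.38 for *Hhex*, 1.12 for *Zbtb32* and 2.36 for *Cd55*. *Zbtb32* was 1.07 at resolution 1, where 148 cells rich in it left the class. Without against with *Ighd*, *Nt5e* was 1.47 with 1 CPM, *Cd80* 3.62 and 0.79 with 1 and 20 CPM, and *Pdcd1lg2* 0.19 without integration and 0.41 with at least 2 *Ighd* UMIs. Shares with a UMI, which scale with depth, were 22.6% and 46.3% for *Cd38*, 12.6% and 29.7% for *Hhex* and 13.8% and 27.1% for *Cd55* when thinned to 1000 UMIs and unthinned, 0.945% for *Cd80* and 2.15% for *Zbtb32* at 1000 UMIs, and 2.71% for *Pdcd1lg2* unthinned. The cause of the other changes was not tested.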
